A study of Mus musculus with 8 samples.

Results

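Primed elements without acetylation were the stretches of the genome of mouse haematopoietic stem cells (HSCs) where H3K4me1 was called in every library and neither H3K27ac nor H3K4me3 was called in any. Overlapping peaks of the 4 H3K4me1 lists were merged into 181242 regions, of which 112074 held a peak from all 4 libraries. Of these, 33363 (29.8%) shared no base with a peak in either H3K27ac list or either H3K4me3 list, and these are the primed elements. The elements were chosen by the called peaks of the 3 marks, so their presence or absence is a description and was not tested. The files hold called peaks alone, and a mark that is not called may still be present below the caller's threshold.

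Monomethylation of lysine 4 on histone H3 (H3K4me1) marks enhancers and the flanks of promoters, acetylation of lysine 27 (H3K27ac) marks those that are active, and trimethylation of lysine 4 (H3K4me3) marks promoters. An enhancer with H3K4me1 and without H3K27ac is called primed: its chromatin has been prepared by lineage factors and H3K4 methyltransferases, while it does not show the acetylation of an active enhancer. In blood stem cells such elements are known near genes that the cells' descendants switch on, and some carry the repressive mark H3K27me3, which was not analysed here.

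The libraries came from CUT&RUN, in which an antibody guides a nuclease to a histone mark in permeabilised cells and the DNA it frees is sequenced. RXRKO mice carried floxed Rxra and Rxrb, the genes of retinoid X receptors alpha and beta, and Vav-Cre, which is active in blood cells and deletes both genes there. WT mice were the comparison, and the sources disagree on their Cre: the sample labels give them Vav-Cre, whereas the design text gives them the floxed genes without Cre, so a difference between genotypes cannot be told apart from one of Cre. All mice were C57BL/6 and about 10 months old, the marrow of 4 or 5 mice was pooled, and 7500 HSCs sorted as Lin- cKit+ Sca1+ CD48- CD150+ cells went into each assay. H3K4me1 had 2 RXRKO and 2 WT libraries, and H3K27ac and H3K4me3 had 1 RXRKO and 1 WT library each. The labels do not say whether replicates came from separate pools of mice, so p-values measure the spread between libraries only.

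The H3K4me1 lists held 147698 and 165128 peaks in RXRKO and 149377 and 159713 in WT, and the other lists between 47835 and 74287. Read totals are not in the files, so the depth is unknown and no counting interval was computed. As a check of the labelled cell type, the HSC genes Mecom, Hlf, Procr, Fgd5, Meis1, Kit, Slamf1 and Cd34 had H3K4me3 and H3K27ac in both genotypes. Cd3e of T cells and Elane of neutrophils had neither mark in either genotype.

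Primed elements included the starts of genes that serve mature blood cells, and the promoters below show what such a start looks like. A promoter here is the 300 bases from 250 before to 50 after a RefSeq transcript start on GRCm38.p6, the same build as mm10. The promoter table held 32851 starts, and 562 of them (1.71%), from 511 genes, overlapped a primed element. Of the protein-coding starts, 257 of 21262 (1.21%) did so, against 305 of 11588 (2.63%) for lncRNA genes. At 181 of the 243 protein-coding genes, no start in the table overlapped H3K4me3 in either genotype.

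The promoters printed lay whole inside a primed element. Klra1, which encodes the natural killer receptor Ly49A, was the highest protein-coding gene among them by the rank of the authors' fold, and the other genes were picked after their values were seen as known effectors of mature blood cells. Prf1 encodes perforin, Gzmb granzyme B of killer cells, Mcpt8 a protease of basophils, Fcgr3 a low-affinity receptor for antibody on myeloid and natural killer cells, and Alas2 the first enzyme of haem synthesis in red cells. The RefSeq sequences run 5′ to 3′ on the gene's strand, and capitals mark a match to any of the 6 short motifs listed after them, on either strand.
Klra1: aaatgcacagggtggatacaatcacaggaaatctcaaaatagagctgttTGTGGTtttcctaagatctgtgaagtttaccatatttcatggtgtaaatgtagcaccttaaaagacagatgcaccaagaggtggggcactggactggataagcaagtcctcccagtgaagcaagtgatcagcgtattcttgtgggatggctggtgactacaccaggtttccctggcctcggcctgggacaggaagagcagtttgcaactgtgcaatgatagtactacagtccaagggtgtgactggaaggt
Prf1: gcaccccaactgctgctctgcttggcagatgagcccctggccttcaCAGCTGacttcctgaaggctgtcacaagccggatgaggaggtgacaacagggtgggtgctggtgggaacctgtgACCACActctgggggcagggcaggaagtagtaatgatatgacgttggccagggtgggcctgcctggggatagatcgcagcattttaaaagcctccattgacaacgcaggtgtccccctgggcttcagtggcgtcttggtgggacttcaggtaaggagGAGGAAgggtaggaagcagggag
Gzmb: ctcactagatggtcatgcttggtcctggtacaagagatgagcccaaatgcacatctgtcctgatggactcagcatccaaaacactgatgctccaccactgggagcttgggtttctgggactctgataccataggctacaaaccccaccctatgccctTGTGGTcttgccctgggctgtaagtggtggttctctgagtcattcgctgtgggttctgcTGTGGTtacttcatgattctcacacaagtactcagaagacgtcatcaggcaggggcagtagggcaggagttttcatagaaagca
Mcpt8: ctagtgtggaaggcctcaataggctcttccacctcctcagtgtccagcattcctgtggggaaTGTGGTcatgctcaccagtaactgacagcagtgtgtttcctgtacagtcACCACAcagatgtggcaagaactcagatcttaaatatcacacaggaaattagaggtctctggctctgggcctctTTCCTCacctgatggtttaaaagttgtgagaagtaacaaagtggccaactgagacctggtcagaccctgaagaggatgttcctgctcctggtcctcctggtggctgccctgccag
Fcgr3: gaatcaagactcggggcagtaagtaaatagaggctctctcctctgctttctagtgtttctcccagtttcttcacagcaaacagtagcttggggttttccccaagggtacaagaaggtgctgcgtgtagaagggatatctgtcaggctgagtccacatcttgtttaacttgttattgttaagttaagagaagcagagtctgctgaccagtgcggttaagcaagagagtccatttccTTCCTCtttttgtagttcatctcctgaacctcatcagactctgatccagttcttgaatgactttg
Alas2: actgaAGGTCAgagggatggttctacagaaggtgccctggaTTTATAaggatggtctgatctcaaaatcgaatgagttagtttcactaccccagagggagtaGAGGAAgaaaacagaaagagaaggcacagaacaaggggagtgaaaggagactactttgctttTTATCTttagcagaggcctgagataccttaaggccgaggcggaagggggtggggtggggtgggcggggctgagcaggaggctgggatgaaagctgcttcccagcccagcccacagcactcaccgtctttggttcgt

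These windows were chr6:130386825-130387124 on the minus strand for Klra1, chr10:61297586-61297885 on the plus strand for Prf1 and chr14:56262285-56262584 on the minus strand for Gzmb. Those of the remaining genes were chr14:56085148-56085447 on the minus strand for Mcpt8, chr1:171059345-171059644 on the minus strand for Fcgr3 and chrX:150547167-150547466 on the plus strand for Alas2. Mcpt8 and Gzmb each held 2 matches to TGTGGT, a core of RUNX sites, whereas Alas2 held none and carried 1 match each to the GATA, nuclear receptor and TATA motifs. CpG dinucleotides were scarce in all of them: the observed over expected ratio was 0 in Mcpt8, 0.103 in Gzmb, 0.125 in Klra1, 0.201 in Fcgr3, 0.203 in Prf1 and 0.318 in Alas2.

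Low CpG content was shared by the promoters in primed elements. Their median observed over expected CpG was 0.198, against 0.383 over all promoters and 0.75 over promoters with H3K4me3 and H3K27ac called, and 2.85% of them exceeded 0.6, against 35.8% of all. The median GC content was 49.3% in primed elements and 52.7% in all promoters. TGTGGT was present in 27.6% of the promoters in primed elements and 16.8% of all, GAGGAA of ETS sites in 39.3% and 28.3%, and AGATAA of GATA sites in 16% and 11.2%. AGGTCA, the core bound by RXR and its partner receptors, was in 21.4% and 16.3%, CAGCTG, an E-box, in 22.6% and 16.3%, and TATAAA in 20.3% and 13.6%. All promoters include 13612 windows with H3K4me3 and H3K27ac called, marks that the rule keeps out of primed elements. Every motif was rarer in those windows than in all promoters, with AGGTCA in 11.6%, AGATAA in 6.14% and TATAAA in 6.48%. TGTGGT was in 12.8% of those windows, CAGCTG in 15.1% and GAGGAA in 27.1%. The contrasts with all promoters, in CpG and in motifs, are therefore not free of the rule. Its part in each of them was not tested. Each motif was searched on both strands, any overlap between motifs was kept, and base composition differed between the sets as given above. A match is a description of the letters and does not show that a factor binds.

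H3K4me1 at the Prf1 start covered 1667 and 1519 bp in the RXRKO libraries and 1385 and 1731 bp in the WT libraries, with an element of 1749 bp at chr10:61296708-61298456. The genotypes overlapped there, and the nearest H3K27ac peak was 5637 bp away. At Mcpt8 the element had 1151 and 1424 bp in RXRKO and 1313 and 1099 bp in WT, and the nearest H3K27ac peak was 137330 bp away. Fcgr3 had 1633 and 1653 bp in RXRKO and 1960 and 2039 bp in WT, so both RXRKO libraries lay below both WT libraries. Gzmb had 521 and 857 bp in RXRKO and 381 and 651 bp in WT, with overlap between the genotypes. At Alas2 the lengths were 500 and 775 bp in RXRKO and 727 and 766 bp in WT, and Klra1 had 1158 and 1151 bp in RXRKO and 1109 and 1186 bp in WT. Among promoters lying whole inside an element, the remaining 3 genes of the highest 4 by fold rank, all lncRNA genes, were Gm5149, Gm36365 and Gm19585, with a lowest percentile over the 4 libraries of 95.3, 93.5 and 88.6, against 90.7 for Klra1.

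Lists of genes were then set against these starts. Of 260 listed genes with a start in the table, 12 (4.62%) had one in a primed element, against 243 of 17273 protein-coding genes (1.41%). Granulocyte and monocyte genes had 3 of 23, namely Fcgr3, the integrin gene Itgam (CD11b) and the neutrophil protease gene Prtn3. Erythroid and megakaryocyte genes had 3 of 22, namely Alas2, the platelet chemokine gene Ppbp and Rhag of the red cell membrane. B lineage genes had 1 of 17, the B cell factor gene Pax5, and T and NK genes had 1 of 21, Gzmb. At Pax5 the element overlapped the promoter window alone, and 0 of the 7 regions in the gene body were primed. The neuronal adhesion gene Cntnap2 and the synaptic scaffold gene Dlg2 (2 of 17 neuronal genes), the cardiac myosin gene Myh7 (1 of 22 genes of other tissues) and the retinol transporter gene Stra6 (1 of 19 RXR targets) made up the rest. HSC identity genes had 0 of 25, housekeeping genes 0 of 19, nuclear receptors 0 of 30 and the MYC family 0 of 13. Interferon and inflammation genes had 0 of 21, and stromal and endothelial genes 0 of 15. Dlg2 and Stra6 also had another start with H3K4me3. These counts were not tested.

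Shared active distal elements were the 8545 regions with H3K4me1 in all 4 libraries, H3K27ac in both genotypes and no H3K4me3. Primed elements as a whole, those at starts included, were narrower than these. Their median width was 753 bp (quartiles 555 and 1009, range 203 to 3393), against 1178 bp for shared active distal elements and 1056 bp for all regions called in the 4 libraries. Of the primed elements 58.1% overlapped a protein-coding gene, against 60.7% of shared active distal elements and 62.5% of all. The median distance to a gene start was 17744 bp for primed elements, 21064 bp for shared active distal elements and 13022 bp for all regions. For protein-coding genes with no start in the promoter table, both ends of the gene were counted as starts. A single peak in every library made up 83.9% of primed elements.

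H3K4me1 itself was weaker by the authors' fold over background, which was ranked within each list as a percentile. The median percentile of primed elements was 43.5 and 47.0 in RXRKO replicates 1 and 2, and 44.7 and 44.0 in WT replicates 1 and 2. For shared active distal elements it was 75.6 and 74.8 in RXRKO and 74.9 and 73.0 in WT. The order was the same in all 4 libraries. A lowest percentile of at least 75 over the 4 libraries was reached by 1714 primed elements (5.14%), against 3015 shared active distal elements (35.3%).

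**Figure D1:**
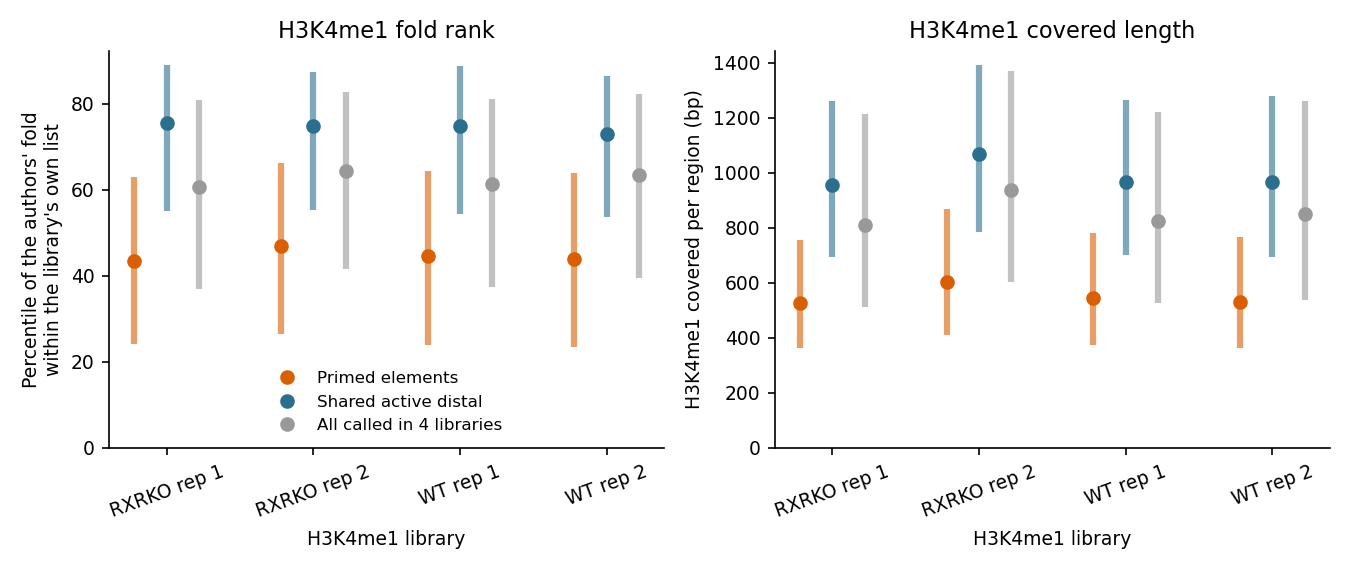
Percentile of the authors' fold within each H3K4me1 list (left) and base pairs covered by called H3K4me1 peaks per region (right), with the median as a point and the quartiles as a bar, for primed elements, shared active distal elements and all regions called in 4 libraries. Primed elements have the lowest median in each of the 4 libraries, between 43.5 and 47.0 on the left.

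The share of regions that were primed fell with the rank of H3K4me1. It was 55.5% among regions whose lowest percentile was under 10, 35.2% between 40 and 50, and 2.96% at 90 or above. The share with any H3K27ac peak ran the other way, with 33.5% in the lowest bin and 94.0% in the highest. In the highest bin 235 of 7926 regions were still primed. The part of weak signal in the missing H3K27ac calls was not tested.

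**Figure D2:**
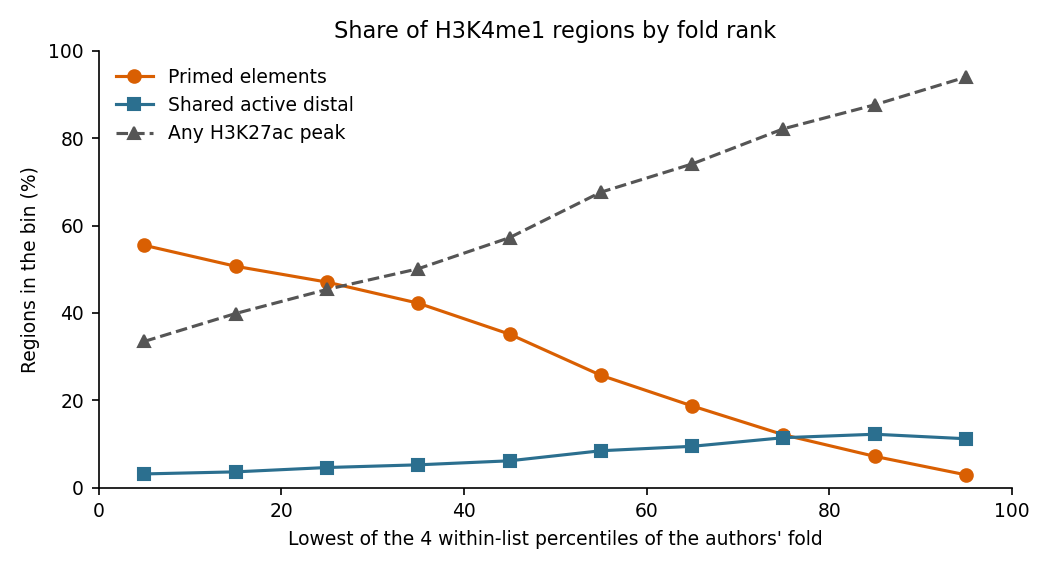
Percent of the regions in each bin of 10 percentile points that are primed elements, shared active distal elements or overlap any H3K27ac peak, against the lowest of the 4 within-list percentiles of the authors' fold. The primed share falls to 2.96% in the highest bin, against 55.5% in the lowest.

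The strongest primed elements by that rank had H3K4me1 with high folds and no other called mark. The first lay 23197 bp from Gp2, the glycoprotein 2 gene, at chr7:119418277-119419340, with authors' folds of 10.1 and 15.1 in RXRKO and 13.3 and 12.8 in WT, and its nearest H3K27ac peak was 22109 bp away. The second lay 6689 bp from the proline dehydrogenase gene Prodh, with folds of 9.45 and 11.2 in RXRKO and 12.4 and 12.2 in WT. Next came an element inside the zinc finger gene Zfp618, and elements nearest to Tom1l1 and to the endothelial receptor gene Adgrl4, with a lowest percentile between 98.4 and 98.5. The widest elements measured 3393 bp, 167519 bp from Frmd6, 3315 bp in Nkain3, 3147 bp in the TNF receptor gene Tnfrsf1a, 3051 bp in Ralgps1 and 3046 bp in Hivep2. The Tnfrsf1a element at chr6:125352656-125355802 had 2332 and 2972 bp in RXRKO and 2929 and 2474 bp in WT, and its nearest H3K27ac peak was 1831 bp away.

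The distance from primed elements to acetylated chromatin depended on the threshold of the peaks. The median distance to the nearest H3K27ac peak of either genotype was 4682 bp (quartiles 1694 and 11371.5), 15.4% lay within 1 kb, 52.1% within 5 kb and 98.4% within 100 kb. With peaks of an authors' fold of at least 4 alone the median was 14696 bp. For the primed elements as deposited, the median distance was 6086 bp to RXRKO H3K27ac peaks alone and 5235 bp to WT peaks alone. Only 80 elements lay within 100 bp. The nearest were 1 bp from a peak near Elk4, 2 bp in Ap1g1 and 3 bp in Spats2l. Just outside the rule, 53 regions without H3K4me3 shared at most 100 bp with H3K27ac, the smallest being 5 bp in Fam110b and 8 bp each in Cdh23 and near Mapk14. The Elk4 element had folds of 1.85 and 2.04 in RXRKO and 2.10 and 1.88 in WT, and the Fam110b region 1.98 and 1.93 in RXRKO and 1.89 and 2.11 in WT.

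Primed elements lay in the bodies of 7507 of 21627 protein-coding genes (34.7%), and 253 genes held 10 or more. Lrmda, a gene of melanocyte differentiation, held 42 of the 82 regions in its body, followed by Pde4d, a cyclic AMP phosphodiesterase gene, with 41 of 108. Dlg2 held 30 of 69, and Mecom, a transcription factor gene needed by HSCs, 28 of 84. Prkca, which encodes protein kinase C alpha, held 27 of 57, the forkhead gene Foxn3 27 of 59, the cyclic GMP kinase gene Prkg1 26 of 61, the corepressor gene Rere 26 of 66, Foxp1 25 of 90 and Nfia 25 of 74. These are long genes, from 340 kb (Rere) to 1973 kb (Dlg2). The primed share of regions was 16.4% in genes under 20 kb, 26% from 20 to 100 kb, 31.9% from 100 to 300 kb and 34.9% above 300 kb.

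Per length, genes of at least 20 kb with at least 5 primed elements were ranked. Rab1a, a GTPase gene of transport from the endoplasmic reticulum, held 7 of its 8 regions as primed elements over 25.4 kb, or 27.5 per 100 kb, and its neighbour Cep68, a centrosome gene, held 6 of 8, or 26.8 per 100 kb. Next were Fam168b with 20.1, Tmigd1 with 19.6, the cargo receptor gene Tmed10 with 17.6 and the syntenin gene Sdcbp with 16.4 per 100 kb. Cand1, a cullin regulator gene, Pdcd1lg2, which encodes the checkpoint ligand PD-L2, the RNA-binding gene Stau1 and Zfp957 had between 14.3 and 14.5. PD-L2 had 9 primed elements among 13 regions.

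By gene list, within 20 kb of each gene, the primed share ran from 20.0% to 40.5%, against 28.5% (25278 of 88720 regions) over all protein-coding genes. Neuronal genes had the highest share, 171 of 422 regions, led by Dlg2 (32 of 74), the cell adhesion gene Dscam (21 of 37), Cntnap2 (18 of 43) and the neurexin gene Nrxn3 (15 of 33). Their median length was 1080 kb, against 17.3 kb over all genes. Nuclear receptors had 31.2%, with the orphan receptor gene Rora (25 of 84), the retinoic acid receptor gene Rarb (19 of 37), the oestrogen receptor gene Esr1 (14 of 28) and the fat cell regulator gene Pparg (9 of 15). RXR heterodimer targets had 30.8% (82 of 266), with Rarb again, the cholesterol exporter gene Abca1 (5 of 15), Stra6 (5 of 10) and Apoe (4 of 8). Rarb stands in both lists.

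HSC identity genes also had 30.8% (236 of 766), with Mecom (29 of 87), the angiopoietin gene Angpt1 (22 of 50), Mllt3 (20 of 50) and the RNA-binding gene Msi2 (18 of 60). At each of these 4 genes more regions overlapped H3K27ac than were primed, for example 55 at Mecom, and the same held over all protein-coding genes. The share overlapping H3K27ac was 62.8% in the HSC identity list and 63.9% over all protein-coding genes. B lineage genes had 28.1% (62 of 221), with the repressor gene Bach2 (16 of 63), Bank1 (7 of 17), Cd22 (4 of 8) and Cd24a (4 of 10). T and NK genes had 25% (71 of 284), with the adaptor gene Skap1 (13 of 39), the thymocyte factor gene Tox (13 of 33), the kinase gene Prkcq (6 of 21) and Camk4 (5 of 14). Granulocyte and monocyte genes had 25.3% (46 of 182), with the cytokine receptor gene Csf2rb (5 of 10), the mannose receptor gene Mrc1 (5 of 14), the neutrophil elastase gene Elane (4 of 12) and Prtn3 (4 of 11). Erythroid and megakaryocyte genes had 26.5% (63 of 238), with Rab27b of platelet granules (7 of 17), the GATA1 cofactor gene Zfpm1 (6 of 24), the spectrin gene Sptb (5 of 12) and the platelet integrin gene Itgb3 (4 of 19).

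Stromal and endothelial genes had 29.4% (74 of 252), with the bone factor gene Runx2 (18 of 59), the VEGF receptor gene Flt1 (6 of 17), Adgrl4 (5 of 15) and Ptprb (5 of 11). Interferon and inflammation genes had 28.1%, and 11.4% at a fold of 4 or more or 15.1% with a 1 kb margin around the other marks, led by Nfkb1 (11 of 27), Irf1 (4 of 11), Cxcl10 (3 of 10) and Ifit1 (3 of 8). Genes of other tissues had 25.9%, with the heart calcium channel gene Ryr2 (4 of 10) ahead of Cdh1 (3 of 8), Epcam (3 of 4) and Muc2 (3 of 5). As deposited, the lowest shares were those of housekeeping genes at 20.6% (34 of 165), where Ywhaz had 7 of 11, Eif4a1 3 of 10, Polr2a 3 of 9 and Sf3b1 3 of 7, and of the MYC family at 20.0% (21 of 105). At a fold of 4 or more the housekeeping share was 11.1%, and the MYC share was 24.4%, above the 11.4% of interferon genes. At a -log10 q of at least 5 the MYC share was 29.3%, above the 26.8% of granulocyte and monocyte genes. In the MYC family, Max had 4 of 7, Myc 3 of 4, Mnt 3 of 7 and Mga 3 of 10. No listed gene with at least 3 regions had all of them primed. Over all genes 15 did, among them the enamel gene Amelx with 6 of 6 and the cytokine gene Il19 with 5 of 5, both picked after their values were seen. The shares of overlapping gene windows are descriptions and were not tested.

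**Figure D3:**
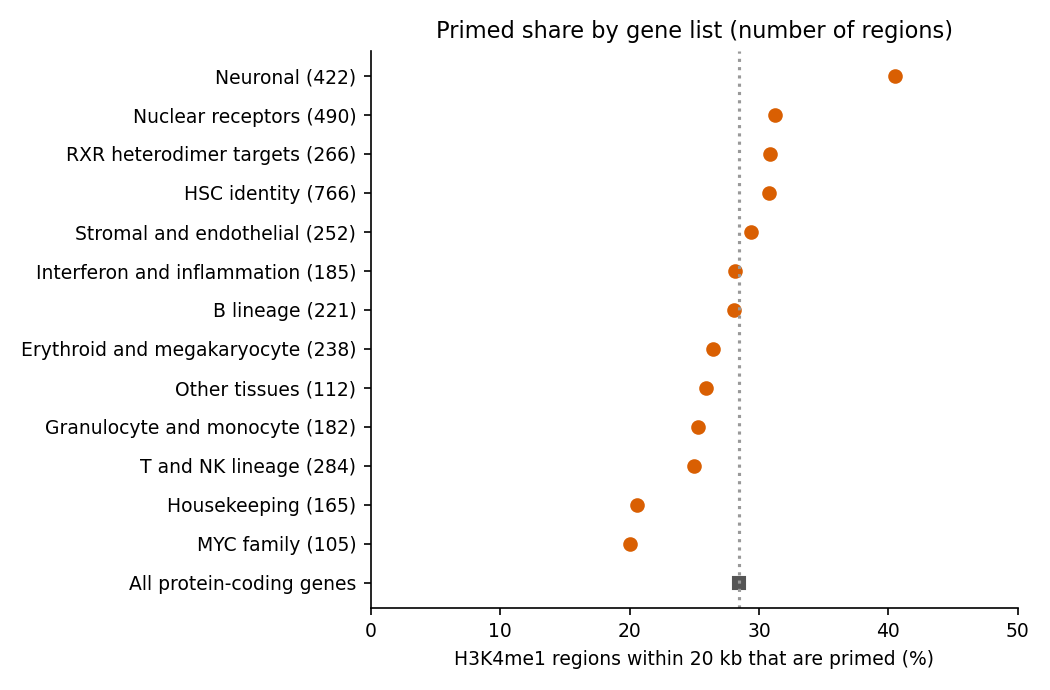
Percent of the H3K4me1 regions within 20 kb of the genes of each list that are primed elements, with the number of regions in brackets. The dotted line is the share over all protein-coding genes, 28.5%, and the neuronal list lies farthest above it at 40.5%.

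Along the chromosomes, primed elements stood alone or in runs, where a run is a stretch of primed elements with no region called in all 4 libraries of another kind between them. Of the elements 15891 stood alone, and the remaining ones formed runs of at least 2. The longest run held 13 elements over 475 kb at chr14:53084468-53559503, among the V segments of the T cell receptor alpha locus, which are joined to J segments in developing T cells. It spanned 50 V segments, and neither H3K27ac nor H3K4me3 was called inside it in either genotype. A run of 11 elements over 101 kb lay 42233 bp from Bcor, a corepressor gene, and one of 10 over 25.1 kb lay in Hipk2 and Tbxas1, the thromboxane synthase gene. Among the runs of 9 were those in the acetyltransferase gene Crebbp, 52650 bp from the transcription factor gene Mef2c and 317102 bp from Dcdc2c. The spans of the Crebbp and Dcdc2c runs each held 1 H3K27ac peak between their elements. A run of 8 covered Rab1a and Cep68. These runs and the receptor loci were looked at after the values were seen.

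**Figure D4:**
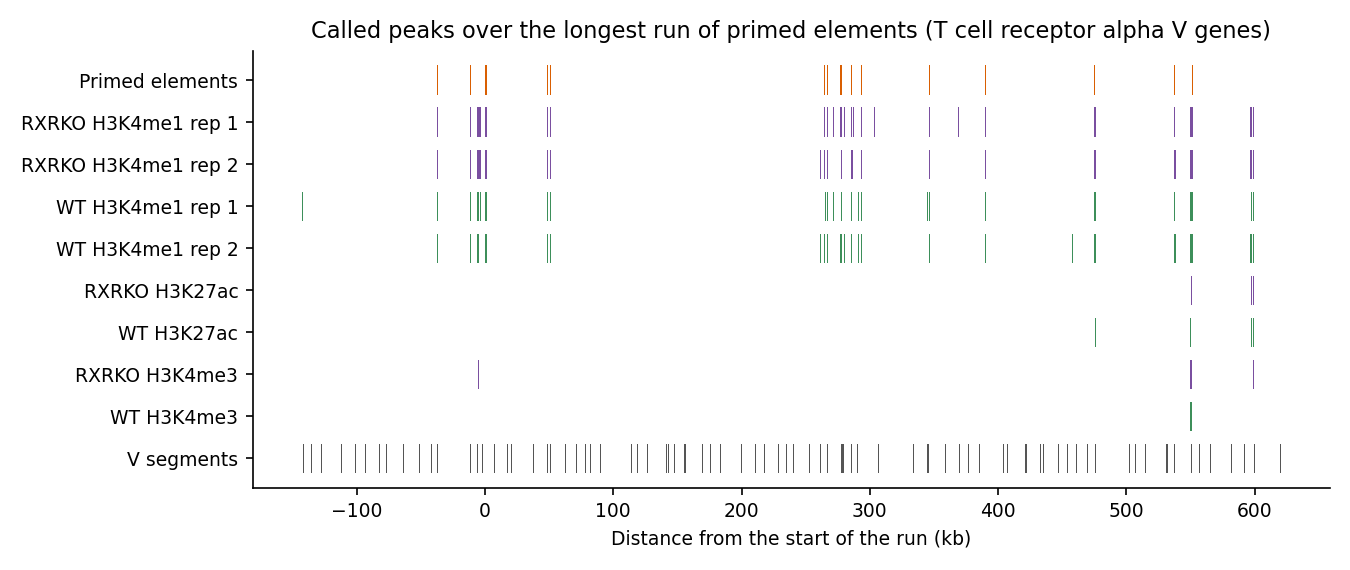
Peaks called in each of the 8 libraries, primed elements and V segments over the longest run and 150 kb on each side, against the distance from the start of the run in kb; features are drawn at least 0.8 kb wide. H3K4me1 is called in all 4 libraries at the 13 elements of the run, and no H3K27ac or H3K4me3 peak lies inside its 475 kb.

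The antigen receptor loci differed among themselves. Over the T cell receptor alpha and delta locus 45 of 85 regions (52.9%) were primed, and over the immunoglobulin heavy chain locus 41 of 87 (47.1%). The beta locus had 21 of 47 and the gamma locus 2 of 5. The kappa light chain locus had 0 of 8, and its 8 regions all overlapped H3K27ac, while the lambda locus held no region called in all 4 libraries. In the alpha and delta locus 18 primed elements lay within 1 kb of a V segment, and in the heavy chain locus 24 did. Near-identical V segments share reads, so how the aligner placed those reads can affect which segments carry a peak.

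Primed elements made up a larger share of regions on the X chromosome than on any autosome analysed. The share was 39.7% (1053 of 2651) on X, against 27.4% to 31.5% on the autosomes. Among regions with a lowest percentile of at least 50 it was 24.1% on X and 12.4% to 15.8% on autosomes. X held between 2.48% and 2.65% of the peaks of the H3K4me1 lists, 2.0% of the RXRKO and 1.87% of the WT H3K27ac peaks, and 2.03% of the RXRKO and 2.34% of the WT H3K4me3 peaks. The sex of the mice is not in the labels used here, and its part in this share was not tested. This chromosome was picked after its values were seen.

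Of 1005 miRNA hairpins in the RefSeq table, 172 overlapped a region called in all 4 libraries and 13 a primed element. The pair Mir194-2 and Mir192 of chromosome 19, known from gut and kidney, lay in one, as did Mir744 on chromosome 11.

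RXRKO was compared with WT by the H3K4me1 length covered per region, taken as log2 of base pairs plus 100 and centred on each library's median. Only regions called in all 4 libraries were fitted, so a region called in 1 genotype alone was left out of the comparison. Over all 112074 regions, limma called 0 (0%) at an adjusted p under 0.05, and the lowest adjusted p was 0.435. At an unadjusted p under 0.05 there were 6940 regions (6.19%), and among primed elements 1601 higher and 1413 lower in RXRKO (9.03%). This split was 1677 and 999 with no centring. Leaving out either RXRKO library reversed its direction, and leaving out either WT library did not. The sign of the median log2 difference depended on the libraries of both genotypes in the fit. The median log2 difference of primed elements was −0.025 without RXRKO replicate 1 and 0.029 without RXRKO replicate 2. It was 0.0074 without WT replicate 1 and −0.039 without WT replicate 2. Primed elements whose RXRKO libraries both lay above both WT libraries numbered 5893 (17.7%), against 14.8% of all regions, and 6223 (18.7%) lay below, against 17.8% of all. The median log2 difference was −0.0046 for primed elements and −0.016 for all regions. The median size of the difference was 0.197 in primed elements, 0.111 in shared active distal elements and 0.125 in all regions, and the median width of primed elements was the smaller. The 95% interval of a single primed element, not adjusted for the number of regions, had a median half-width of 0.577 on the log2 scale. The absence of a call leaves room for differences of that size and larger. Beyond a log2 difference of 1 lay 673 primed elements (2.02%), against 1.04% of all regions, without a call.

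The calls depended on the libraries in the fit. Without WT replicate 1, limma called 1027 regions higher and 226 lower in RXRKO, 481 and 107 of them primed elements, and without WT replicate 2 it called 384 and 112, of which 130 and 57 were primed elements. Without either RXRKO library it called 0. A fit without 1 library assumes that the lone library of that genotype varies like the other genotype's.

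The primed elements with the smallest p in each direction are values and not calls, each with an adjusted p of 0.435 in limma. The nearest gene to the first was Igfbp7, an insulin-like growth factor binding gene 122151 bp away. Its element at chr5:77530196-77532016 had 1580 and 1821 bp in RXRKO and 241 and 280 bp in WT (log2 2.27, SE 0.181). An element 2627 bp from Zc3h12d, which encodes an RNA-binding protein of lymphocytes, had 1262 and 1626 bp in RXRKO and 185 and 226 bp in WT (log2 2.28, SE 0.209). In both the RXRKO peaks spanned most of the element and the WT peaks a small portion of it. The next were 144276 bp from the splicing gene Rbfox1 (log2 2.30), 8726 bp from the linker histone gene H1f0 (1.83) and 372387 bp from Iqcm (1.02).

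In the other direction an element 9367 bp from Strn, the striatin gene, had 297 and 429 bp in RXRKO and 1664 and 1667 bp in WT (log2 −2.0, SE 0.172). An element inside Stab2, a scavenger receptor gene, at chr10:86989878-86991169 had 293 and 358 bp in RXRKO and 1270 and 1292 bp in WT (log2 −1.76, SE 0.185). An element 43 bp from Gzmm, the granzyme M gene of killer cells, had 190 and 333 bp in RXRKO and 1224 and 1417 bp in WT (log2 −2.05, SE 0.229). The genotypes did not overlap at any of these sites, as the choice by smallest p brings about. The remaining pair were in Ppp2r2b (log2 −1.92) and 56714 bp from Akap7 (−1.95).

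Summed over all primed elements, H3K4me1 covered 19.9 and 22.7 Mb in RXRKO (mean 21.3 ± 2.03 Mb, SD, n = 2) and 20.5 and 20.1 Mb in WT (mean 20.3 ± 0.293 Mb, SD, n = 2). The genotypes overlapped: RXRKO replicate 2 was the highest library and RXRKO replicate 1 the lowest. The difference was 1.01 Mb (exact two-sided permutation test, p = 1, where the smallest p this design allows is 0.333). Peak names give the replicate 1 libraries one run tag and the replicate 2 libraries another. Under the first tag RXRKO was lower, and under the second it was higher. Only regions called in all 4 libraries entered these sums.

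**Figure D5:**
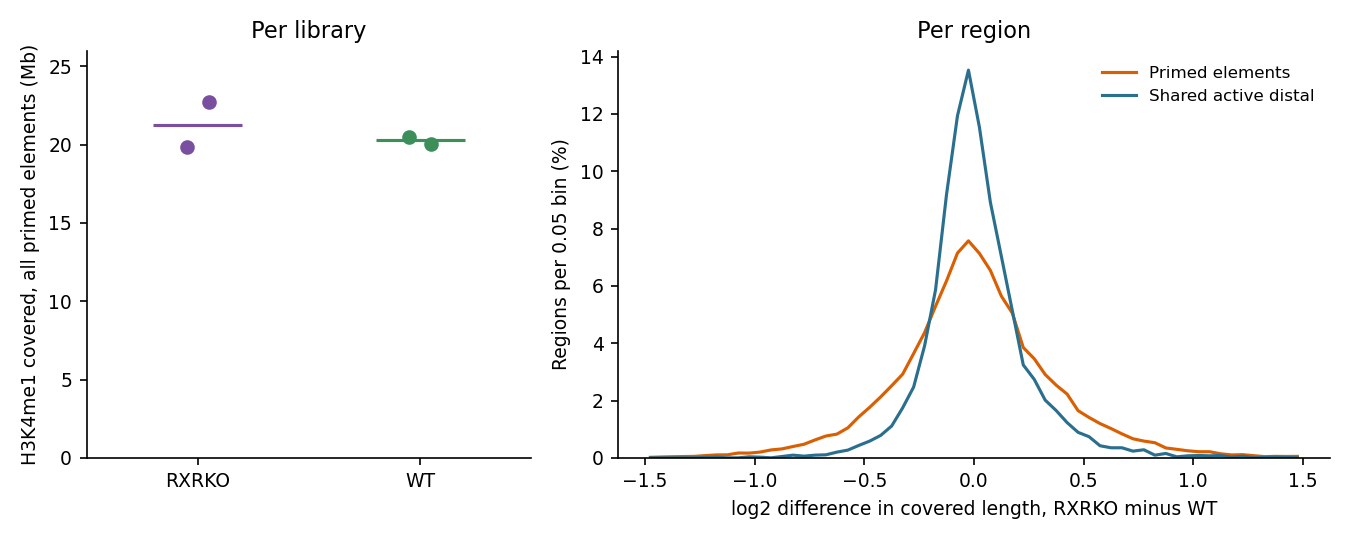
H3K4me1 covered over all primed elements in Mb per library (left, points, with the mean as a line) and percent of regions per bin of 0.05 in the log2 difference in covered length, RXRKO minus WT (right), for primed and shared active distal elements. RXRKO libraries at 19.9 and 22.7 Mb enclose the WT libraries at 20.5 and 20.1 Mb, and the primed curve is the wider, with a median size of 0.197 against 0.111.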

How the data were processed

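Each of the 8 libraries has a deposited peak list. The authors used cutadapt 1.7.1, Bowtie2 2.2.5, MACS3 and the genome build mm10, per the submitters' processing notes. What the sources used here leave unstated: the control library, the MACS3 version and duplicate handling. Deposited score values are, for nearly all peaks, 10 times the -log10 q cut to a whole number, the deposited fold is a ratio over the caller's background, and the -log10 p and -log10 q values are the caller's. The fold was the authors' own value and was used only to rank peaks within a list.

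Peaks of the 4 H3K4me1 lists were merged where they shared at least 1 bp, and lengths covered by called peaks were summed per region. Positions are 1-based on mm10. Genes, starts, V segments, miRNAs and promoter sequences came from RefSeq tables of GRCm38.p6. One chromosome of the annotation was not in the promoter table. Of 362 listed gene entries in 13 lists, 361 were found. Regions called in all 4 libraries were fitted together with limma 3.58.1 (lmFit, eBayes with trend, Benjamini-Hochberg) and no block. The deposited peak names carry a run tag, one for both replicate 1 libraries of H3K4me1 and another for the remaining libraries. The labels do not name what a run is. Across regions, the replicate difference in RXRKO correlated with that in WT with r = 0.208 over all regions and 0.120 over primed elements, regions not being independent replicates. The fit was tested on simulated data in which the spread of each region was drawn either from the prior that limma had estimated or from the spread estimated per region. The per-region scheme was written first and gave more false calls than the nominal rate. The prior scheme was added after that was seen and kept the rate, but it missed the regions shifted by 1 on the log2 scale. Calls in the fits without 1 library may therefore hold excess false calls, and the count of 0 with all libraries does not show that the genotypes were alike.

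Some genes of the cell type check and of the lists of runs are not reported here, so the check as printed is partial. Members and gene lists were chosen with earlier results of these data known. The text names the genes with the most and the densest primed elements, the 4 highest of each list, the widest, strongest and nearest elements, the 5 smallest p in each direction and the 4 genes with the highest fold rank among promoters lying whole inside an element.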

Additional observations from a re-analysis of the deposited data

How the results depend on the processing

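The rule gave 33363 primed elements, and 14114 with an authors' fold of at least 4 in every list, where peaks under that fold count as absent. A primed element of that setting overlapped only 5583 of the 33363, and one at a -log10 q of at least 5, where the count was 32606, overlapped 23673. The counts under the other alternatives stayed within 1.5 times, with 23688 at a -log10 q of at least 5 for H3K4me1 alone, 27132 with a 1 kb margin around the marks, 41366 with no H3K4me3 condition and from 36709 to 37764 with 1 H3K4me1 library left out. Judging H3K27ac in the RXRKO list alone gave 41198 and in the WT list alone 37557, alternatives chosen after seeing the data.

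The primed share over all genes, 28.5% with a 20 kb window, was 28.2% at 5 kb and 28.8% at 50 kb. It was 31.5% at a -log10 q of at least 5, 22.8% with that threshold for H3K4me1 alone, 22.5% with the margin, 29.7% with lists of equal length, 36.1% without the H3K4me3 condition, 35.2% with H3K27ac from RXRKO alone, 32.0% from WT alone and 30.0% to 30.6% with 1 library left out. The neuronal and nuclear receptor lists lay above all genes under all 16 alternatives run, HSC identity under 15 and RXR heterodimer targets under 10. Moves of a list by over 1.5 times, beside those given with the lists, were 20.4% for HSC identity and 11.5% for housekeeping genes with the margin and 30.5% for the MYC family without the H3K4me3 condition. The share on X minus that on autosomes stayed between 7.71 and 12.2 percentage points.

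The count of regions called between RXRKO and WT was 0 with the replicate block, where 4133 primed elements had an unadjusted p under 0.05, and 0 with other pseudocounts, no centring, no trend, a -log10 q of at least 5 or a fold of at least 4. With 1 library left out it ran from 0 to 1253 regions, and from 0 to 588 primed elements. The summed difference ran from −0.568 Mb, reversed, without RXRKO replicate 2 to 2.56 Mb without RXRKO replicate 1. The causes were not tested. Depth is unknown, so weak marks below the caller's threshold cannot be told apart from absent ones.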
